A study of Homo sapiens with 30 samples.

Results

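The genes described here are the nuclear-encoded genes of the mitochondrial respiratory chain, measured in 5 human cell lines established from T-ALL, an acute leukaemia of immature T cells. They were chosen by symbol: protein-coding genes of GENCODE 29 that start with NDUFA, NDUFB, NDUFC, NDUFS, NDUFV, UQCR or ATP5, that run from SDHA to SDHD, or that start with COX and a digit, with 100 or more reads over all libraries. Of 60554 gene identifiers 108 matched the symbols and 101 reached the read minimum. These 101 members are 37 subunits and 8 assembly factors of complex I, 4 subunits of complex II, 9 of complex III, 14 subunits and 9 assembly factors of complex IV, 18 subunits of the ATP synthase, and 2 further ATP synthase genes, ATP5IF1 and ATP5S. The symbols were not chosen by response to treatment, but the read minimum counted decitabine libraries too. COX8C reached it only with its decitabine reads.

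The lines, always listed here with PEER first, then TALL-1, MOLT-16, Loucy and last PER-117, were each cultured for 48 h with decitabine at 1 µM or with the solvent dimethyl sulfoxide (DMSO). Decitabine is a cytidine analogue that is built into DNA and depletes DNA methyltransferases. Each line and treatment had 3 libraries, 30 in all, of reads from the 3′ ends of polyadenylated RNA, with 2.20 M to 15.4 M gene reads each. No treatment other than the solvent or the drug is named in the labels, and each line is 1 established culture, so the lines differ from each other in more than 1 respect.

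The respiratory chain passes electrons from NADH through complex I, and from succinate through complex II, to ubiquinone, then through complex III and cytochrome c to complex IV, where oxygen is reduced. The proton gradient built on the way drives the ATP synthase. Most subunits are encoded in the nucleus and the rest in mitochondrial DNA, so the complexes are put together from both with the help of assembly factors that are not part of the finished enzyme. Proliferating T-cell leukaemias use both this chain and glycolysis for ATP and building blocks.

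Levels are in CPM, the gene reads of a library divided by its TMM-scaled total. A 3′ read marks 1 transcript end whatever the transcript's length, and levels are compared here within a gene or within a summed group. In bulk samples fewer cells with a transcript and less of it per cell cannot be told apart. Nothing in the labels states that replicates came from separate cultures, so p-values measure only the spread between these libraries, which may be technical. The T-lineage markers summed to 570.2 CPM (PER-117) to 2685 CPM (TALL-1) in the DMSO groups, against 8.12 to 81.5 CPM for B-lineage, 1.83 to 53.9 CPM for myeloid and at most 3.25 CPM for epithelial and stromal markers, and the part of these in the results was not tested.

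Transcripts that only 1 line makes showed up in 3 DMSO libraries of other lines: PEER replicate 2, TALL-1 replicate 3 and MOLT-16 replicate 3. Such genes were 5 in PEER, 1 in TALL-1, 3 in MOLT-16, 12 in Loucy and 4 in PER-117. For each set the median percent of the own-line level was taken, and these medians were summed over the other lines. The sums were 5.80% to 18.8% in the 3 libraries, against 0 to 1.46% in the other 12. The 5 genes restricted to PEER stood at a median of 13.8% of their PEER level in the TALL-1 library and 17.4% in the MOLT-16 library. In the PEER library the largest median was 3.94%, for the 3 MOLT-16 genes, of which 2 were detected. Counts and medians over all members, and named calls that were lost, are given with and without these 3 libraries. Summed levels are given both ways for complex I and where their sign or overlap changed. In the remaining results the part of these libraries was not tested or is not given.

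In untreated cells the members differed between lines as most genes did. Of the 100 members that passed the count filter, 94 differed among the 5 DMSO groups at an adjusted p under 0.05 (edgeR's quasi-likelihood F test), as did 91.6% of all genes tested. Without the 3 libraries 99 differed, beside 91.0% of all genes. The distances were small for this data set, with a median of 1.09 on the log2 scale between the highest and lowest line, against 1.78 over all genes. Of the 95 members that reached 10 CPM in some DMSO group, 43 stayed within 2-fold and only NDUFB7 and NDUFAF2 spanned more than 4-fold.

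With TMM scaling the summed level of these transcripts was highest in PER-117 and PEER and lowest in Loucy and TALL-1, an order that in part depended on the scaling. Summed over all members, the 3 DMSO libraries stood at 28321, 30021 and 28562 CPM in PER-117 and at 26013, 27394 and 26684 CPM in PEER. The sums were 22294, 22217 and 24537 CPM in MOLT-16, 20497, 20120.4 and 22725 CPM in TALL-1, and 20491, 21008 and 21511 CPM in Loucy. The PER-117 and PEER libraries did not overlap with any of the other 9, whereas those of TALL-1 and Loucy overlapped with each other. The highest level of a member lay in PER-117 for 36 and in PEER for 29 of the 95, and the lowest in Loucy for 33 and in TALL-1 for 31. Scaled by total gene reads, the DMSO means of the sum were 27124 CPM in PEER, 25213 CPM in PER-117, 23678 CPM in Loucy, 21054 CPM in MOLT-16 and 20147.5 CPM in TALL-1. PEER and PER-117 were then in the reverse order, and Loucy stood above MOLT-16 and TALL-1.

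Tested against the mean of the other 4 lines, 54 of the 100 members were higher in PER-117 and 9 lower, with backgrounds of 30.3% and 28.3% of all genes. In PEER 45 were higher and 10 lower (27.2% and 19.0% of all genes). The direction turned in TALL-1, with 11 higher and 42 lower (28.3% and 21.0%), and in Loucy, with 16 higher and 42 lower (35.0% and 26.1%). MOLT-16 lay between, with 20 higher and 29 lower (28.5% and 22.0%). By complex, 20 of 36 complex I subunits and 10 of 18 ATP synthase subunits were higher in PER-117, 17 of 36 complex I subunits were lower in TALL-1, and 7 of 9 complex III subunits were lower in Loucy. Scaled by total gene reads, 27 members were higher and 25 lower in Loucy (46.8% and 18.7% of all genes), and 28 higher and 15 lower in PER-117 (23.0% and 35.4%). The counts in Loucy thus moved with the scaling, and so did the shares of all genes. Beside those shares, fewer members were higher and more were lower in Loucy under both scalings. With the 3 libraries left out each of the 10 TMM counts moved by less than 1.5 times.

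Single subunits of the same complex differed from this order. NDUFB7, an accessory subunit in the membrane arm of complex I, stood at 268, 260.2 and 233 CPM in Loucy and at 293, 339 and 221 CPM in PER-117. It stood at 30.6, 21.1 and 41.6 CPM in MOLT-16, with PEER (96.8, 60.9 and 62.2 CPM) and TALL-1 (50, 77 and 41.7 CPM) overlapping between them. MOLT-16 lay below the mean of the other lines by a log2 difference of −2.06 ± 0.22 (SE) (adjusted p = 1.1e-08). The neighbouring subunit NDUFB10 was low in Loucy alone, at 36.5, 39.5 and 39.6 CPM, where the other 12 libraries ran from 94.9 to 163 CPM (log2 difference −1.80 ± 0.11, adjusted p = 1.3e-14). Loucy thus had a high level of NDUFB7 and the lowest of NDUFB10, in libraries that do not overlap with those of MOLT-16 for either gene.

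ATP5F1E, the epsilon subunit of the ATP synthase, was also lowest in Loucy, at 268, 298 and 303 CPM against 652 to 1094 CPM in the other 12 libraries (log2 difference −1.52 ± 0.09, adjusted p = 2.1e-14). UQCRQ, a small complex III subunit, followed the common order more closely. It stood at 252, 253 and 269.5 CPM in Loucy, at 343, 340.4 and 435 CPM in TALL-1, and at 916, 1022 and 814 CPM in PER-117. NDUFAF2, an assembly factor of complex I, ranged from 5.15, 7.87 and 8.77 CPM in TALL-1 to 30.3, 32.0 and 30.5 CPM in PER-117. At the other end, NDUFS1, the largest subunit of the complex I peripheral arm, differed by 0.34 between its highest and lowest line and was not called (adjusted p = 0.0749), and COX6B1 and NDUFB9 spanned 0.45 and 0.42.

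**Figure D1:**
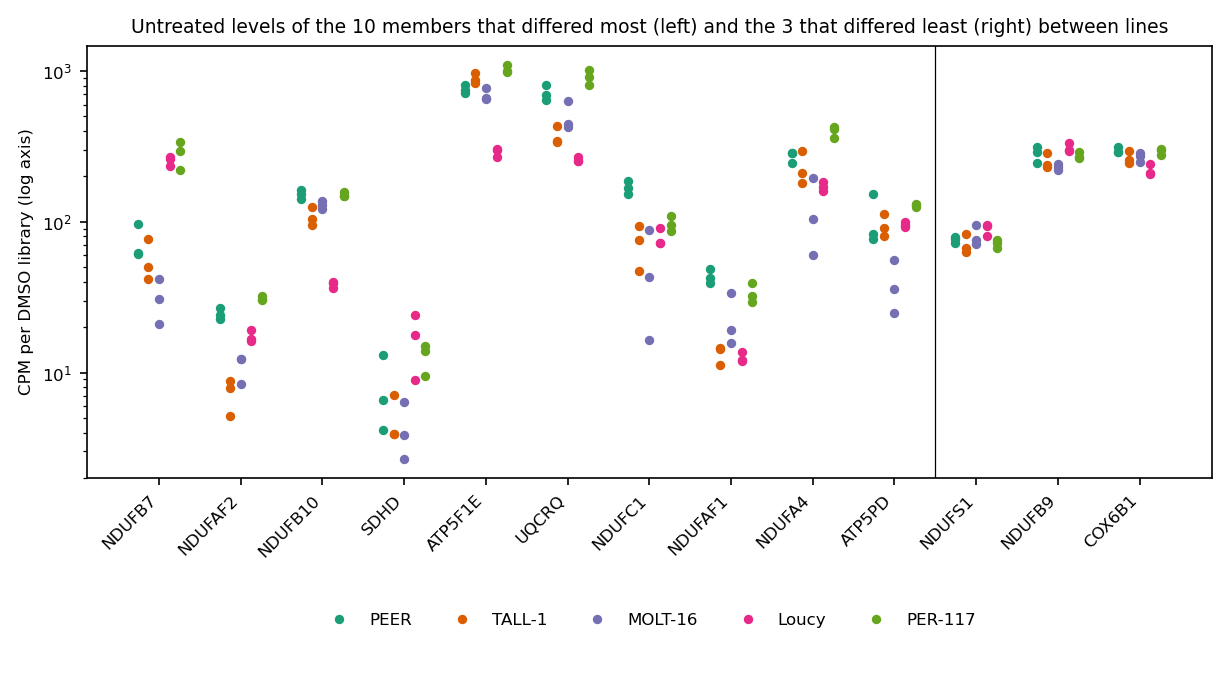
Level in CPM (log axis) of each DMSO library for the 10 members with the largest and the 3 with the smallest distance between lines, coloured by line. NDUFB7 separates Loucy and PER-117 from the other 3 lines, NDUFB10 and ATP5F1E separate Loucy alone, and NDUFS1, NDUFB9 and COX6B1 have line means that differ by 1.27-, 1.34- and 1.36-fold.

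With decitabine the median member was slightly lower than the median gene in each line, and few members passed the test in any line. The median log2 change was −0.17 in PEER, −0.22 in TALL-1, −0.11 in MOLT-16, −0.10 in Loucy and −0.07 in PER-117, against −0.02, −0.00, −0.01, 0.03 and 0.05 over all genes. The change was negative for 88, 77, 64, 68 and 71 of the 100 members in these lines, and for 26 in all 5 lines, which holds for 8.48% of all genes. 1 member, COX8C, was positive in all 5, as were 8.45% of all genes. COX8C was a member only because its decitabine reads were counted. With the 3 libraries left out the medians were −0.12, −0.11, −0.10, −0.11 and −0.07 in the 5 lines in their order, against 0.02, 0.02, 0.00, 0.03 and 0.06 over all genes, and 88, 73, 57, 69 and 71 members were negative. When libraries were scaled by total gene reads in place of TMM, the median of all genes rose to 0.14 in Loucy and that of the members to 0.01, so the sign in Loucy depends on the scaling. The change was then negative for 65, 66, 57, 48 and 65 members. The distance of the members' median from that of all genes was −0.14 in PEER, −0.19 in TALL-1, −0.08 in MOLT-16, −0.14 in Loucy and −0.13 in PER-117 under that scaling.

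At an adjusted p under 0.05, 1 member rose and 4 fell in PEER, where 3.54% of all genes rose and 0.961% fell. In TALL-1 1 rose and 10 fell (6.74% and 6.12% of all genes), in Loucy 2 rose and 9 fell (10.6% and 4.13%), and in PER-117 1 rose and 5 fell (8.67% and 3.16%). In MOLT-16 none rose and 3 fell (2.19% and 1.01%), and 11 members were higher at an unadjusted p under 0.05, as were 10.4% of all genes. DESeq2 called 2 higher in MOLT-16, where it called 3.31% of all genes higher. Altogether 25 members were called in at least 1 line, 22 of them lower, and 75 in none.

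Without the 3 libraries the counts were 1 higher and 1 lower in PEER (4.7% and 0.896% of all genes), 1 and 8 in TALL-1 (7.46% and 6.49%), 20 and 15 in MOLT-16 (9.78% and 7.93%), 2 and 15 in Loucy (14.5% and 8.0%), and 1 and 8 in PER-117 (11.9% and 5.6%). With all libraries and TMM scaling the share of members that fell was above the background in the 5 lines and the share that rose below it. Scaled by total gene reads, 0, 4, 1, 1 and 2 members fell in the 5 lines in their order, where 0.318%, 3.7%, 0.597%, 1.82% and 2.32% of all genes did, so the falls were then near or below the background. With edgeR and DESeq2's size factors no fall was left in PEER. When the 3 libraries were left out, with TMM scaling, the falls were near the background in PEER and TALL-1, and MOLT-16 was the only line in which the share of rises exceeded it.

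**Figure D2:**
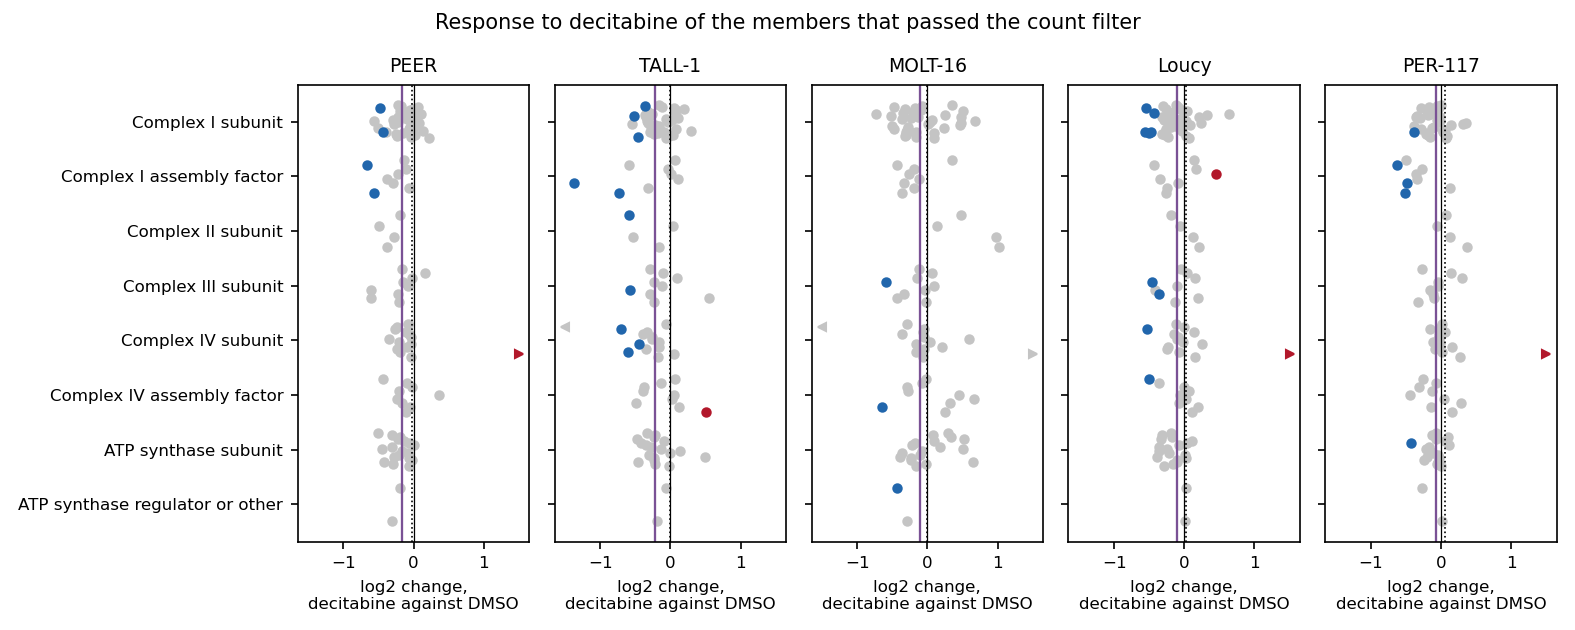
Log2 change with decitabine of each member that passed the count filter, by complex and line. Members called lower are blue, those called higher red and the others grey, and triangles mark values beyond ±1.5. The purple line is the median of the members and the dotted line that of all genes, which lies to the right of it in every line.

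With the 5 lines as replicates, where the 3 libraries of a group were summed, edgeR called no member in either direction, beside 0.0578% of all genes higher and 0.0% lower. The 100 members tested in this fit include NDUFV2 and not COX4I2, while the 100 of the tests within single lines include COX4I2 and not NDUFV2. At an unadjusted p under 0.05, 17 of 100 members were lower and 1 higher, where 7.85% and 8.92% of all genes were. The change was negative for 86 of the 100, with a median of −0.12. Leaving out the 3 libraries gave no call either (0.488% of all genes higher and 0.0814% lower), and 73 of 99 were negative, with a median of −0.10. DESeq2 on the sums of all libraries called 8 members lower, among them NDUFS3, NDUFAF2, NDUFAF8, NDUFA9 and UQCRFS1, beside 2.07% of all genes, and COX8C higher, beside 2.72%.

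The summed level of the complex I subunits was lower with TMM scaling in all 3 decitabine libraries than in all 3 DMSO libraries in each of the 5 lines. In Loucy the sum was 5484, 5771 and 5967 CPM with DMSO and 5267, 4882 and 4865 CPM with decitabine, a change of −12.8%. In PER-117 it was 6794, 7099 and 6835 CPM and then 6185, 6402 and 6296 CPM, or −8.90%. The change was −9.63% in PEER, −10.7% in TALL-1 and −8.41% in MOLT-16. Scaled by total gene reads, the sums changed by −4.23%, −4.21%, −4.53%, −5.88% and −6.78% in the 5 lines in their order, and the libraries then overlapped in TALL-1, MOLT-16 and Loucy. When the 3 libraries were left out, with TMM scaling, the change was −11.5% in PEER, −5.45% in TALL-1 and −6.69% in MOLT-16, still without overlap. With TMM scaling the summed level of assembly factors outside the symbol rule, given below, was also lower without overlap in each of the 5 lines.

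**Figure D3:**
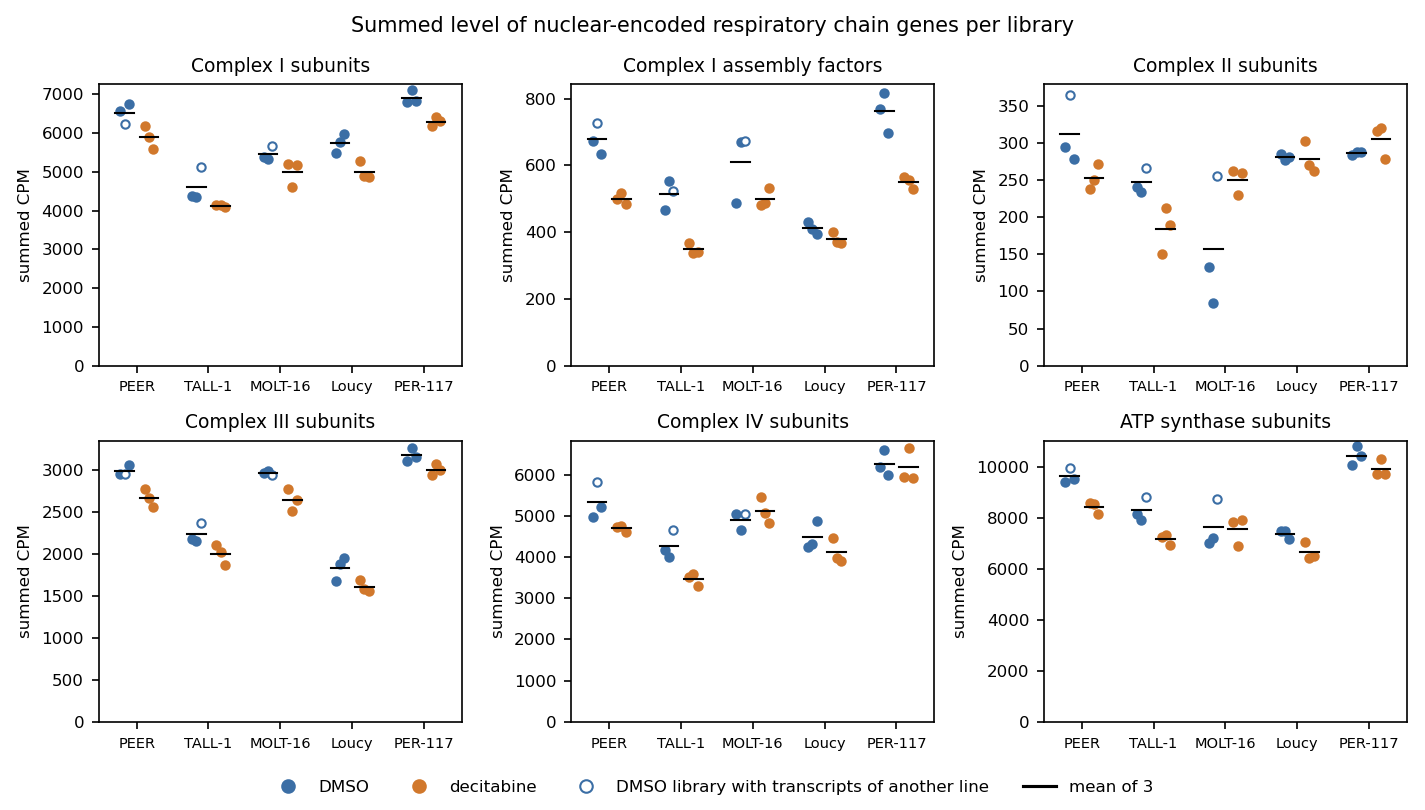
Summed CPM of the members of 6 groups in each library, by line and treatment. The TMM-scaled complex I sums with decitabine lie below those with DMSO in every line, and the complex II sums of MOLT-16 with DMSO spread from 84.9 to 255 CPM.

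NDUFS3, a core subunit of the peripheral arm, fell in 3 lines. It stood at 398, 338 and 371 CPM in Loucy with DMSO and at 289.9, 241 and 263 CPM with decitabine, without overlap (log2 change −0.48 ± 0.12, adjusted p = 0.0051). In PER-117 it went from 309, 326 and 282 CPM to 222, 250.1 and 226 CPM (−0.39 ± 0.12, adjusted p = 0.026), and in PEER from 208, 278 and 224 CPM to 175, 176 and 174 CPM (−0.44 ± 0.12, adjusted p = 0.032). The libraries of TALL-1 did not overlap either, at 112 to 120 CPM and 93.4 to 97.1 CPM, but the change there did not pass the test (−0.29, adjusted p = 0.12). The PEER call was lost without PEER DMSO replicate 2 (adjusted p = 0.18), without DMSO replicate 3 (0.0563) and without any decitabine library (0.0893 to 0.0924). The PER-117 call was lost without decitabine replicate 1 or 3 or DMSO replicate 1 or 2 (0.0774 to 0.124), while the Loucy call held with any library left out.

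Other complex I subunits were called in 1 or 2 lines. NDUFS4, an accessory subunit often mutated in inherited complex I deficiency, fell in Loucy from 48.7, 50.05 and 61.3 CPM to 36.8, 37.9 and 34 CPM (−0.56 ± 0.12, adjusted p = 0.0016). NDUFA12, an accessory subunit of the peripheral arm, went in Loucy from 93.7, 101 and 107 CPM to 72.6, 69.2 and 64.6 CPM (−0.55 ± 0.14, adjusted p = 0.0069). In PEER it was also called (−0.48, adjusted p = 0.049), but not without the PEER library that held other transcripts (−0.33, adjusted p = 0.19), nor with any other library of that line left out (0.0563 to 0.20). NDUFS5 was lower in Loucy as well (−0.50, adjusted p = 0.0064), a call lost without DMSO replicate 3 (0.0733) or decitabine replicate 3 (0.0575), and the latter also ended the NDUFA12 call there (0.0564). NDUFA6 in Loucy and NDUFA9, NDUFV1 and NDUFA10 in TALL-1 were called lower too (−0.37 to −0.52), and these 4 were named after their values were seen. The NDUFA9 and NDUFA10 calls were lost without the 3 libraries (adjusted p = 0.16 and 0.0935). NDUFV1 carries the NADH-binding site of the complex.

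The summed level of the 8 assembly factors of complex I was lower with decitabine in 3 lines. It went from 672, 728 and 635 CPM to 499.7, 516 and 485 CPM in PEER (−26.3%), from 467, 555 and 523 CPM to 368, 338 and 339.5 CPM in TALL-1 (−32.3%), and from 769, 818 and 698 CPM to 564, 557 and 530.4 CPM in PER-117 (−27.7%). These libraries did not overlap, and they did not overlap when scaled by total gene reads (−22.0%, −27.2% and −26.1%). In MOLT-16 (−17.9%) and Loucy (−7.96%) the groups overlapped. NDUFAF8 makes up the largest part of the sum. Of the 8 factors 2 were called lower in PEER, 2 in TALL-1 and 3 in PER-117, beside 0.961%, 6.12% and 3.16% of all genes. In TALL-1 3 were positive. The median log2 changes of the 8 factors in PEER, TALL-1 and PER-117 were −0.26, −0.18 and −0.43, beside −0.11, −0.17 and −0.14 for the subunits. The difference between the groups was not tested.

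NDUFAF8, a small protein that works with the assembly factor NDUFAF5, stood in TALL-1 at 239, 301 and 282 CPM with DMSO and at 182, 157 and 152 CPM with decitabine (−0.74 ± 0.16, adjusted p = 0.0022). In PEER it went from 447, 490.1 and 405 CPM to 302, 313 and 289 CPM (−0.57, adjusted p = 0.034) and in PER-117 from 519, 572 and 455 CPM to 373, 358 and 346 CPM (−0.52, adjusted p = 0.027). Only the MOLT-16 libraries overlapped, and in Loucy the change was −0.26 (adjusted p = 0.29). The TALL-1 call held with any library left out. The PEER call was lost without PEER DMSO replicate 1 or 2 or any decitabine library (0.0795 to 0.112), and the PER-117 call without any library but DMSO replicate 3 (0.0685 to 0.136).

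NDUFAF6, an assembly factor needed early for complex I, had its strongest fall in TALL-1, from 73.2, 99.6 and 76.8 CPM to 31.5, 32.8 and 31.7 CPM (−1.37 ± 0.16, adjusted p = 1.2e-06). The PER-117 libraries went from 56, 51.6 and 51.8 CPM to 38.1, 45 and 30.4 CPM (−0.49, adjusted p = 0.033), while in Loucy they overlapped (−0.09, adjusted p = 0.75). The responses of the 5 lines differed for this gene (adjusted p = 0.0017). NDUFAF2, a relative of NDUFA12 that holds its place during assembly, fell in PER-117 from 30.3, 32.0 and 30.5 CPM to 19.6, 21.5 and 19.2 CPM (−0.62 ± 0.18, adjusted p = 0.017) and in PEER (−0.66, adjusted p = 0.042). It was negative in all 5 lines. The PER-117 calls depended on single libraries: that of NDUFAF6 was lost without DMSO replicate 1, 2 or 3 or decitabine replicate 1 or 3 (0.0616 to 0.20), and that of NDUFAF2 without DMSO replicate 2 or decitabine replicate 1 or 3 (0.0671 to 0.0736). The PEER call of NDUFAF2 was lost without any library but DMSO replicate 2 (0.0745 to 0.18).

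One assembly factor went the other way. NDUFAF4 rose in Loucy from 35.0, 45 and 33.6 CPM to 57.6, 54.1 and 44.2 CPM (0.46 ± 0.14, adjusted p = 0.03), with a slight overlap of the groups. It was negative in PEER, MOLT-16 and PER-117 (−0.23, −0.26 and −0.36, none called), and its responses differed between lines (adjusted p = 0.034). The Loucy call was lost without decitabine replicate 1 or 2 or DMSO replicate 1 or 3 (0.0872 to 0.16). The difference between lines was lost without any of these 4, without TALL-1 decitabine replicate 2, or without PER-117 decitabine replicate 1 or 3 or DMSO replicate 2 (0.05001 to 0.111).

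**Figure D4:**
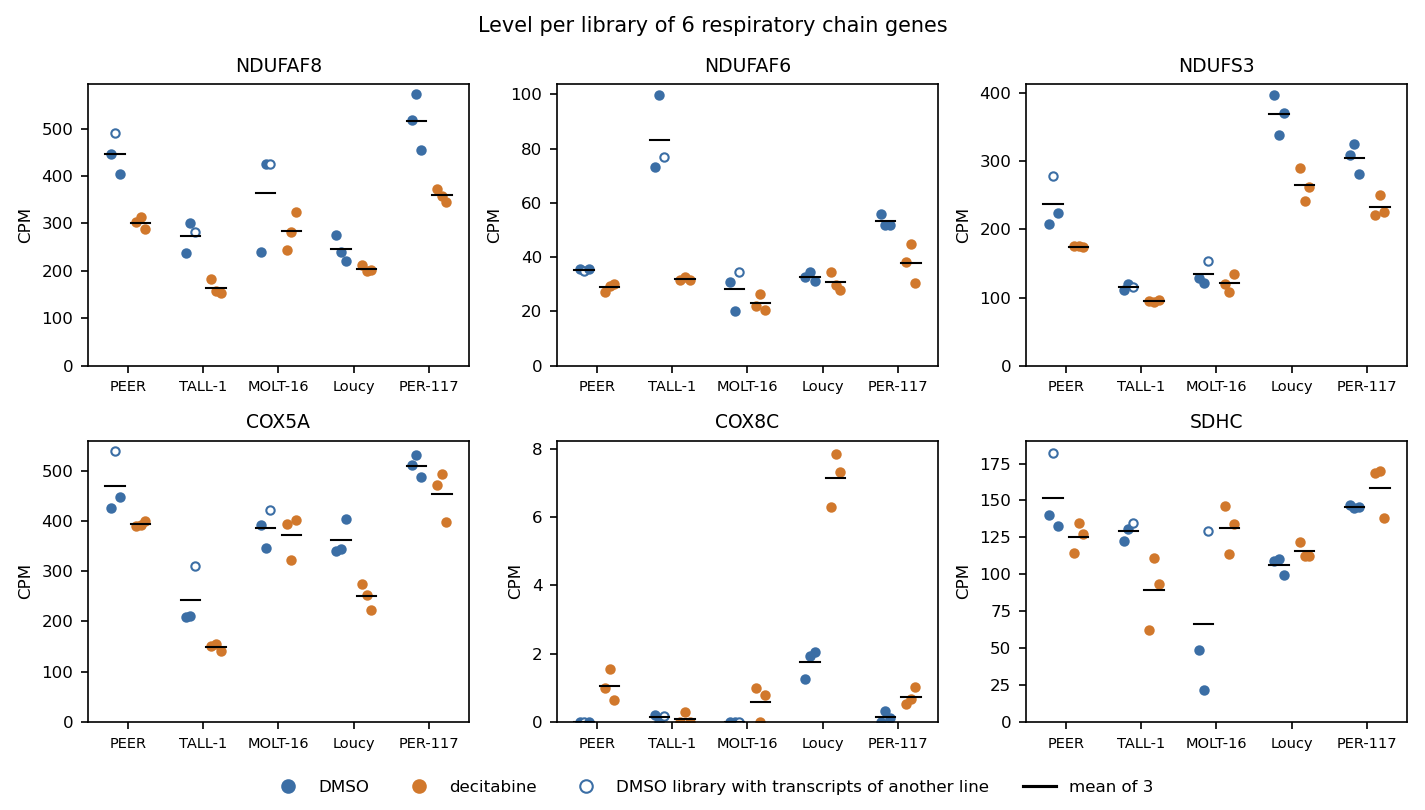
CPM of 6 members in each library, by line and treatment, with open points for the 3 DMSO libraries that held transcripts of another line. NDUFAF8 and NDUFS3 lie lower with decitabine in PEER, TALL-1, Loucy and PER-117, NDUFAF6 falls most in TALL-1, COX8C rises from near 0, and the open SDHC point of MOLT-16 lies among its decitabine libraries.

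The promoters of both recurrent falls can be set beside that of COX8C, which rose, and of COX8A, its widely expressed relative. Sequences are from RefSeq on GRCh38.p14, 200 bases upstream of the transcript start, 5′ to 3′ on the plus strand, with CpG dinucleotides, the sites of DNA methylation, in capitals. They lie at chr11:47578874-47579073 (NDUFS3, 17 CpGs), chr17:81239111-81239310 (NDUFAF8, 9 CpGs, at the most upstream of 3 starts listed), chr14:93346982-93347181 (COX8C, 8 CpGs) and chr11:63974420-63974619 (COX8A, 14 CpGs).
NDUFS3: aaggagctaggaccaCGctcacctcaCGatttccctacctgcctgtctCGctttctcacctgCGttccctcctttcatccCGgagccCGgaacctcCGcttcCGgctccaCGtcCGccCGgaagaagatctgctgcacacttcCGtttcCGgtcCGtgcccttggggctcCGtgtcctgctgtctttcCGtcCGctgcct
NDUFAF8: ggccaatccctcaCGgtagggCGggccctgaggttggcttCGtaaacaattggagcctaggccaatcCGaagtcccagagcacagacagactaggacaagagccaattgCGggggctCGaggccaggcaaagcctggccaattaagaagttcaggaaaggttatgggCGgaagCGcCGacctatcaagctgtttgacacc
COX8C: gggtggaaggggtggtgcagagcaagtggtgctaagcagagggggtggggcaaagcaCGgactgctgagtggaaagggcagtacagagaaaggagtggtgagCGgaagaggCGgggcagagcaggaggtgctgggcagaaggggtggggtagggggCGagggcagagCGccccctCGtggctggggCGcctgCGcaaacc
COX8A: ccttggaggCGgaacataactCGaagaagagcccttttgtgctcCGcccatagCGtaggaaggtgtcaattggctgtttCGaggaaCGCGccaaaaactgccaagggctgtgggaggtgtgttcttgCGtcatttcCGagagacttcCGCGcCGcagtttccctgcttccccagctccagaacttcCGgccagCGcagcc
Of the 101 members 82 had an entry, with 104 promoter windows of 300 bases (250 before and 50 after the start). The windows held 23 CpGs in the median, against 14 over all 35116 windows, and COX8C's window of 10 CpGs had more than only 6 of the 104. Motifs known from respiratory chain promoters were counted on either strand. The NRF1 motif GCGCANGCG was in 26.9% of the members' windows and 7.5% of all windows, the ETS motif CCGGAAG, bound by GABPA, in 28.8% and 10.3%, and the YY1 motif AAGATGGCG in 12.5% and 1.7%. The E-box CACGTG was in 8.7% and 7.3%. The members' windows also held more CpGs, whose part in the motif shares was not tested, and a match is not a bound site. Methylation was not measured in these libraries.

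Of the 4 subunits of complex II, the succinate dehydrogenase, 1 responded differently between lines. SDHA, its flavoprotein, fell in TALL-1 from 70.6, 67.2 and 74.1 CPM to 52.2, 42.1 and 46.6 CPM (−0.59 ± 0.16, adjusted p = 0.016), a call lost without decitabine replicate 2 (0.0892) or 3 (0.0515) or DMSO replicate 3 (0.0537). In MOLT-16 the change was positive (0.48, adjusted p = 0.11), and the responses of the 5 lines differed (adjusted p = 0.021). The difference was not called without TALL-1 decitabine replicate 2 (adjusted p = 0.0638) or when libraries were scaled by total gene reads (0.0533). For SDHB, SDHC and SDHD the test of the difference between lines was not passed (adjusted p = 0.58, 0.0957 and 0.33), though for SDHC it was without the 3 libraries (4.0e-06).

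In MOLT-16 the result depended on 1 DMSO library. SDHC, a membrane anchor of complex II, stood at 48.8, 21.4 and 129 CPM in DMSO replicates 1 to 3 and at 146, 114 and 134 CPM with decitabine. DMSO replicate 3 lay within the decitabine libraries and the other DMSO libraries below them. Replicate 3 also held PEER transcripts, whose part in this level was not tested. With it the change was 0.97 (adjusted p = 0.077), and without the 3 libraries 1.87 (adjusted p = 7.4e-07). The pair of DMSO libraries that then remained differed from each other by more than 2-fold. The other anchor, SDHD, and SDHA were called higher as well without them (1.41, adjusted p = 0.032, and 0.76, adjusted p = 0.0016).

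The 20 members higher in MOLT-16 without the 3 libraries included NDUFB3 (1.49), the copper chaperone COX17 (1.24), ATP5MD (0.99), ATP5PD (0.98) and NDUFC1 (0.94), and the 15 lower included COX19 (−0.77), NDUFA11 (−0.66) and NDUFB8 (−0.60). COX17 stood at 128 and 51.5 CPM in DMSO replicates 1 and 2, at 232 CPM in replicate 3, and at 256, 172 and 224 CPM with decitabine. NDUFC1 stood at 43.2 and 16.4 CPM, at 87.8 CPM, and at 71.1, 57.2 and 47.0 CPM. In both, DMSO replicate 2 was the lowest of the 6 libraries and replicate 3 lay within or above those with decitabine.

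In complex III the calls were falls. The summed level was lower without overlap in PEER (−10.8%), TALL-1 (−10.5%), MOLT-16 (−10.9%) and PER-117 (−5.40%), but scaled by total gene reads the libraries overlapped in all lines but PEER (−5.46%). UQCRC1, a core protein of the complex, went in Loucy from 85.9, 92.4 and 100.4 CPM to 73.6, 64.8 and 64.4 CPM (−0.46 ± 0.14, adjusted p = 0.027) and in MOLT-16 from 60.3, 87.5 and 84.6 CPM to 54.1, 46.5 and 53.7 CPM (−0.59, adjusted p = 0.032). The Loucy call was lost without decitabine replicate 2 or 3 or DMSO replicate 2 or 3 (0.0591 to 0.126) and the MOLT-16 call without DMSO replicate 2 or any decitabine library (0.0735 to 0.109). UQCRH, the hinge protein, was called in Loucy (−0.36, adjusted p = 0.032) and lost without DMSO replicate 2 or 3 or any decitabine library (0.063 to 0.126). UQCRFS1, the Rieske iron-sulfur protein, was lower in TALL-1 (−0.57, adjusted p = 0.044) and was named after its value was seen.

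In complex IV, the cytochrome c oxidase, COX5A fell in both TALL-1 and Loucy. It stood at 209, 211 and 310 CPM in TALL-1 with DMSO and at 151, 154 and 141 CPM with decitabine (−0.71 ± 0.14, adjusted p = 0.0011), and the highest value was that of replicate 3. Without the 3 libraries the change was −0.50 (adjusted p = 0.0075). In Loucy it went from 339, 344 and 404 CPM to 275, 252 and 223 CPM (−0.54, adjusted p = 0.0081), a call lost without decitabine replicate 3 (0.0856) or DMSO replicate 3 (0.0503). COX8A fell in TALL-1 from 419, 411 and 467 CPM to 304, 271 and 274 CPM (−0.61 ± 0.12, adjusted p = 9.7e-04), and in PER-117 it stayed at 485, 471 and 459 CPM and 470.4, 477 and 472 CPM (0.00 ± 0.12). COX7A2L, which takes part in supercomplex assembly, was lower in TALL-1 (−0.44, adjusted p = 0.017), and was named after its value was seen.

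Among the assembly factors of complex IV, COX19 fell in MOLT-16 from 49.8, 46.5 and 38.6 CPM to 30.4, 26.9 and 28.4 CPM (−0.64 ± 0.14, adjusted p = 0.0068). In Loucy it was slightly higher without overlap, at 40.8 to 44.4 CPM and 47.6 to 49.3 CPM (0.19, adjusted p = 0.31). The responses differed between lines (adjusted p = 0.015), though not without MOLT-16 DMSO replicate 1 (0.0501). COX20, a chaperone of a catalytic subunit, rose in TALL-1 from 49.4, 41.6 and 39.9 CPM to 55.9, 65.7 and 64.6 CPM (0.51, adjusted p = 0.011). That call was lost without decitabine replicate 2 (0.0527) or DMSO replicate 3 (0.0642) and when reads of both strands were counted (0.307). COX10, which makes haem O, was lower in Loucy (−0.50, adjusted p = 0.038), and was named after its value was seen.

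Of the 18 ATP synthase subunits none was called in PEER, TALL-1, MOLT-16 or Loucy with all libraries, and the medians of their log2 changes were −0.20, −0.24, −0.05 and −0.18. The summed level, a DMSO mean of 9649 CPM in PEER, 8316 CPM in TALL-1 and 7387 CPM in Loucy, changed in these lines by −12.4%, −13.6% and −9.54% without overlap. Scaled by total gene reads these changes were −7.29%, −7.30% and −2.28%, and the libraries overlapped in TALL-1 and Loucy. With the 3 libraries left out 6 subunits were called higher and 1 lower in MOLT-16, beside 9.78% and 7.93% of all genes. In Loucy ATP5F1B, ATP5MC3 and ATP5PO were then called lower (−0.33, −0.38 and −0.31, adjusted p = 0.039, 0.021 and 0.048), beside 8.0% of all genes. ATP5MC1, which encodes the ring subunit c, fell in PER-117 from 630.4, 636 and 546 CPM to 453, 468 and 428 CPM (−0.43 ± 0.14, adjusted p = 0.0496), and only leaving out DMSO replicate 3 kept this call (0.0843 to 0.163 otherwise). ATP5IF1, the inhibitor protein of the enzyme, fell in MOLT-16 from 655, 722 and 525 CPM to 490.1, 495 and 427 CPM (−0.43, adjusted p = 0.046). That call was lost without DMSO replicate 1 or 2 or any decitabine library (0.0675 to 0.174), and it was stronger without the 3 libraries (−0.58, adjusted p = 8.0e-04).

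COX8C, a testis isoform of a complex IV subunit, had the largest rise among the members. It reached the read minimum only with its decitabine reads, so its membership was not independent of its rise. In Loucy it stood at 1.25, 1.93 and 2.05 CPM with DMSO and at 6.28, 7.84 and 7.33 CPM with decitabine (2.03 ± 0.36, adjusted p = 2.3e-04), or 82 against 314 reads. The ratio of the groups, corrected for depth, was 4.10 (95% counting interval 3.21 to 5.29). In PEER no read was found with DMSO and 11, 6 and 2 with decitabine, 19 in all, which is at least 5.77-fold higher against a floor of 3 reads over the DMSO group (adjusted p = 0.0071). In PER-117 there were 4 and 25 reads, a ratio of 4.97 (1.72 to 19.7, adjusted p = 0.04), and this call was lost without decitabine replicate 2 or 3 or DMSO replicate 1 or 3 (0.067 to 0.172). In MOLT-16 there were 0 and 7 reads (at least 2.88-fold, adjusted p = 0.075) and in TALL-1 2 and 2. Intervals and floors cover counting error only. COX8C lies inside UNC79 on the same strand. UNC79 stood in Loucy at 8.29, 8.12 and 6.69 CPM with DMSO and 7.64, 6.09 and 6.76 CPM with decitabine. In the other lines the group means of UNC79 lay between 0.295 and 0.847 CPM. The part of UNC79 in the COX8C reads was not tested.

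Other tissue-restricted isoforms showed few reads. COX4I2, the lung isoform of subunit 4, was found in PEER at 4.25, 6.49 and 6.82 CPM with DMSO and 5.90, 5.18 and 3.18 CPM with decitabine. No read was found in Loucy or PER-117, so PEER was at least 89.6-fold and 53.0-fold higher than these. The 3 reads in TALL-1 and the 4 in MOLT-16 all came from the DMSO libraries that held other PEER transcripts. Its partner COX4I1 stood at 382 to 878 CPM in every DMSO library. ATP5MGL and UQCRHL, intronless relatives of ATP5MG and UQCRH, were not called in any line.

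Below the read minimum were COX6A2 (1 read in all libraries), COX6B2 (27), COX7A1 (14), COX7B2 (17), NDUFA4L2 (86) and the read-through genes ATP5MF-PTCD1 (13) and NDUFC2-KCTD14 (0). All 17 reads of COX7B2, a testis isoform, came from decitabine libraries, of 5 lines. Of the 27 reads of COX6B2, also a testis isoform, 20 came from PEER with decitabine, and of the 14 of COX7A1, the heart and muscle isoform, 13 came from PER-117 with decitabine. These were too few for a test. NDUFV2 reached the read minimum but not the count filter of single libraries, with 215 reads at 0.241 to 1.77 CPM per library.

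The symbols hide one uncertainty. Of the 101 members 50 have named processed pseudogenes in the annotation, 168 in all and up to 17 for COX6C, and reads that map equally well to several places are not in these counts. NDUFA7, NDUFA13, COX16, ATP5MF and ATP5MGL, like COX8C, overlap another coding gene on the same strand. Levels of these members are uncertain for that reason.

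Over all members, 4 of 100 responded differently between lines at an adjusted p under 0.05 (NDUFAF6, COX19, SDHA and NDUFAF4), beside 13.6% of all genes. Without the 3 libraries 29 did, beside 27.8% of all genes, and 23 did without MOLT-16 DMSO replicate 3 alone. Without TALL-1 decitabine replicate 2 there were 2.

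The summed level of the 13 chain subunits encoded in mitochondrial DNA was lower with decitabine in PEER (−10.7%) and higher in PER-117 (24.4%), in both without overlap. These changes were −5.47% and 27.2% when scaled by total gene reads, also without overlap. In TALL-1 (8.52%), MOLT-16 (20.4%) and Loucy (5.84%) the libraries overlapped with TMM scaling. Scaled by total gene reads, the sum was higher without overlap in TALL-1 (16.8%) and MOLT-16 (26.5%), and overlapped in Loucy (14.2%). None of the 13 was called in PEER or TALL-1. In MOLT-16 MT-CO1 rose from 1034 ± 263 to 1955 ± 51.8 CPM (mean ± SD, n = 3, log2 change 0.92, adjusted p = 8.9e-04) and MT-ND1 rose (0.82, adjusted p = 0.0099). In PER-117 MT-CYB rose from 2281 ± 121 to 3618 ± 86.8 CPM (0.67, adjusted p = 4.6e-04), as did MT-ND4 and MT-CO2, while the nuclear members had a median of −0.07. MT-ND6, the only 1 of the 13 encoded on the light strand, fell in PER-117 from 699.7 ± 69.4 to 154 ± 14.1 CPM (−2.18, adjusted p = 1.7e-06) and in Loucy from 78.3 ± 30.5 to 33.5 ± 7.37 CPM (−1.22, adjusted p = 0.002). The median over the 13 was 0.04, 0.21, 0.41, 0.12 and 0.30 in the 5 lines in their order, and without the 3 libraries −0.13, 0.15, 0.35, 0.11 and 0.30. Of the 13, 0, 0, 2, 0 and 3 were called higher and 0, 0, 0, 1 and 1 lower. Over all genes 3.54%, 6.74%, 2.19%, 10.6% and 8.67% were higher and 0.961%, 6.12%, 1.01%, 4.13% and 3.16% lower. Without the 3 libraries 0, 1, 4, 0 and 6 of the 13 were higher and 0, 0, 0, 2 and 1 lower. The shares of all genes were then 4.7%, 7.46%, 9.78%, 14.5% and 11.9% higher and 0.896%, 6.49%, 7.93%, 8.0% and 5.6% lower. These libraries select polyadenylated ends, and tail length was not measured.

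In the lists of neighbouring pathways most genes did not pass the test in a given line, though some summed levels were lower. Over all genes 3.54%, 6.74%, 2.19%, 10.6% and 8.67% rose and 0.961%, 6.12%, 1.01%, 4.13% and 3.16% fell in the 5 lines in their order. Of 41 assembly factors outside the symbol rule, 0, 1, 1, 0 and 0 rose and 3, 5, 1, 1 and 2 fell in the 5 lines in their order. LRPPRC, which stabilises mitochondrial messenger RNA, fell in TALL-1 and Loucy. With TMM scaling the summed level of these assembly factors was lower without overlap in each line (−13.45%, −9.85%, −7.23%, −6.025% and −10.47%). Scaled by total gene reads it was lower without overlap in PEER (−8.25%) and PER-117 (−8.39%). In TALL-1 (−3.21%), MOLT-16 (−3.22%) and Loucy (1.54%) the libraries then overlapped. Among 22 proteins of the large mitochondrial ribosomal subunit none rose in any line, and 0, 3, 0, 1 and 5 fell, with medians of −0.20, −0.32, −0.10, −0.13 and −0.30. Their summed level was lower without overlap in PEER (−13.9%), TALL-1 (−20.2%), Loucy (−11.4%) and PER-117 (−20.1%), and overlapped in MOLT-16 (−5.43%). Scaled by total gene reads it was lower without overlap in PEER (−8.61%), TALL-1 (−14.4%) and PER-117 (−18.2%), and overlapped in MOLT-16 (−2.05%) and Loucy (−4.30%). Without the 3 libraries, with TMM scaling, the ribosomal sum in MOLT-16 changed by 6.32%, still with overlap. Of 19 tricarboxylic acid cycle genes 0, 2, 0, 2 and 1 fell, IDH2 in both TALL-1 and Loucy, and none rose. Of 17 genes for electron carriers and ubiquinone synthesis COQ4 fell in TALL-1 and COQ10B rose in MOLT-16. When the 3 libraries were left out, 5 of the 41 assembly factors rose and 6 fell in MOLT-16, 4 of the 22 ribosomal proteins rose there and 8 fell in PER-117, and 4 of the 17 carrier genes rose in MOLT-16. Over all genes 9.78% then rose and 7.93% fell in MOLT-16, and 5.6% fell in PER-117.

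Among 18 measured regulators of mitochondrial gene expression, YY1 fell in PEER from 262 ± 28.3 to 196 ± 13.3 CPM (mean ± SD, n = 3, −0.42, adjusted p = 0.019) and in Loucy from 182 ± 8.30 to 143 ± 9.29 CPM (−0.35, adjusted p = 0.023). The PEER call was lost without the 3 libraries (−0.31, adjusted p = 0.12). NRF1, the factor whose motif was counted above, fell in Loucy from 23.1 ± 1.35 to 15.8 ± 2.09 CPM (−0.55, adjusted p = 0.018) and GABPB1, a partner of GABPA, in TALL-1 (−0.43, adjusted p = 0.0078). MYC fell in PEER (−1.10, adjusted p = 0.035) and PER-117 (−0.82, adjusted p = 0.043) and rose in MOLT-16 (1.00, adjusted p = 0.0499), and its PEER call too was lost without the 3 libraries (−0.79, adjusted p = 0.0787). Of the 18, 0, 1, 1, 0 and 0 rose and 2, 1, 0, 2 and 3 fell in the 5 lines in their order. Without the 3 libraries 1, 0, 6, 0 and 0 rose and 0, 1, 1, 4 and 4 fell. Shares of all genes for both fits stand above, with the mitochondrially encoded subunits. The part of the regulators in the members' levels was not tested. The regulators' summed level was lower without overlap in PEER (−21.4%), TALL-1 (−11.7%), Loucy (−15.9%) and PER-117 (−16.1%), and overlapped in MOLT-16 (9.06%). Scaled by total gene reads the libraries did not overlap in PEER (−16.8%), Loucy (−9.12%) and PER-117 (−14.15%), and did in TALL-1 (−5.12%) and MOLT-16 (13.1%). Without the 3 libraries, with TMM scaling, the sum in MOLT-16 was higher without overlap (19.3%).

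The summed level of 20 glycolysis genes was lower without overlap in TALL-1 (−27.7%), MOLT-16 (−32.8%) and PER-117 (−19.5%), and overlapped in PEER (−20.3%) and Loucy (−7.83%). With scaling by total gene reads the changes were −22.6%, −30.0% and −17.7% without overlap, and −15.3% and −0.528% with overlap. Without the 3 libraries, with TMM scaling, the sum in PEER was lower without overlap (−27.9%). Single genes passed the test in both directions, as 1, 2, 0, 2 and 3 of the 20 rose and 1, 5, 5, 1 and 1 fell in the 5 lines in their order. With the 3 libraries left out 1, 2, 1, 4 and 3 rose and 4, 4, 12, 1 and 3 fell. In MOLT-16, 1.01% of all genes fell with all libraries and 7.93% without the 3. The other shares of all genes stand above, with the mitochondrially encoded subunits. SLC2A3, a glucose transporter, rose in all lines but MOLT-16, in Loucy from 20.2 ± 1.70 to 79.9 ± 4.53 CPM (1.98, adjusted p = 8.3e-09). LDHB, the lactate dehydrogenase chain that favours pyruvate formation, fell in PEER, TALL-1 and Loucy (−0.53, −0.64 and −0.52, adjusted p = 0.0062, 4.0e-04 and 0.0022).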

How the data were processed

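The authors deposited raw read counts per gene for each library, and per the submitters' processing notes STAR 2.4.2a, DESeq2 and GRCh38/hg38 were used. Counts on the gene's strand were taken here as deposited, and 56996 of 60554 identifiers matched GENCODE 29. edgeR 4.0.16 (R 4.3.3, limma 3.58.1) fitted 10 group means with TMM scaling and a quasi-likelihood test to 15081 genes that passed filterByExpr (minimum count 10), with Benjamini-Hochberg adjustment over all of them and calls at an adjusted p under 0.05. Standard errors are log2 changes divided by the root of F and are approximate. Scripts were tested on simulated data. Alternatives were DESeq2 1.42.0, other scalings, no filter, unstranded counts, a replicate block, fits to 1 line, and libraries left out. For 1 group the titles and file names exchange replicates 2 and 3, and the titles were used.

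The members and lists were chosen with earlier results of these data known. Named were the largest called changes without overlap in each line (4 each way), members called alike in 3 lines, the 5 with the lowest p for a difference between lines, the 10 with the largest and 3 with the smallest distance between untreated lines, tissue-restricted isoforms with their partners, the 2 highest members of each complex, and members that failed the filter.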

Additional observations from a re-analysis of the deposited data

Results flagged for a closer look

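The response to decitabine differed between the 5 lines for 4 members, by edgeR's test of the difference itself. For NDUFAF6 (adjusted p = 0.001735) the log2 change was −1.37 in TALL-1 and −0.09 in Loucy. For COX19 (adjusted p = 0.01473) it was −0.64 in MOLT-16 and 0.19 in Loucy, and for SDHA (adjusted p = 0.02145) −0.59 in TALL-1 and 0.48 in MOLT-16. For NDUFAF4 (adjusted p = 0.03436) it was 0.46 in Loucy and −0.36 in PER-117.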

How the results depend on the processing

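Of 29 named calls, 9 were kept with any 1 library of their line left out. 7 were kept under every alternative that tested them: COX5A, COX8A, NDUFAF6 and NDUFAF8 in TALL-1, COX8C in PEER and Loucy, and NDUFS4 in Loucy. Of these, COX8C was a member only because its decitabine reads were counted. The fits to the libraries of 1 line gave a value for only 27 of the 29 calls. In PEER that fit called no member higher, so COX8C was not called there. The cause of the changes listed here was not tested.

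Scaling by total gene reads, chosen after seeing the data, left 0 falls in PEER, 4 in TALL-1, 1 in MOLT-16, 1 in Loucy and 2 in PER-117, and turned the summed level of all members in MOLT-16 from −3.50% to 0.503%. DESeq2 size factors left 0 falls in PEER. With no filter there were 2 falls in PEER, 0 rises in TALL-1, 5 rises and 0 falls in MOLT-16, 1 rise and 5 falls in Loucy, 0 rises and 1 fall in PER-117, 9 differences between lines, and 1 rise and 7 falls with lines as replicates. DESeq2 gave 2 rises in MOLT-16, 0 in PER-117, 11 differences between lines, and 1 rise and 8 falls with lines as replicates. Unstranded counts gave 0 rises in TALL-1. Fits to the libraries of 1 line gave 0 rises and 0 falls in PEER, 0 falls in MOLT-16, 14 in Loucy and 15 in PER-117. Without the 3 libraries there was 1 fall in PEER, 20 rises and 15 falls in MOLT-16, 15 falls in Loucy, 8 in PER-117 and 29 differences between lines.

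Leaving out 1 library gave 0 to 2 falls in PEER, 0 to 1 rises and 4 to 9 falls in TALL-1, 0 to 16 rises and 1 to 7 falls in MOLT-16, 1 to 2 rises and 2 to 9 falls in Loucy, 0 to 1 rises and 0 to 4 falls in PER-117, 2 to 23 differences between lines, and 0 to 1 falls with lines as replicates. The 16 rises and 7 falls came without MOLT-16 DMSO replicate 3.

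With a replicate block MOLT-16 had 2 rises and 1 fall and PER-117 0 rises. The check did not settle whether the numbers pair the samples. Over 15 pairs with the same number r ran from −0.19 to 0.22, and 6 decitabine libraries correlated best with their own number. In PER-117 all 3 did so (0.07, 0.13 and 0.20). In PEER, where titles and file names exchange DMSO replicates 2 and 3, decitabine replicate 3 correlated best with DMSO replicate 2 by title (0.27). Decitabine replicate 2 did so with DMSO replicate 3 (0.004).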
